A study of Mus musculus with 6 samples.

Results

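The genes of neurotrophin and GDNF signalling were followed in mouse brainstem with and without a postnatal deletion of *Hoxa5*. They comprised 9 of the 34632 loci in the deposited table, chosen by name and found by that name in the deposited assembly: the ligands *Bdnf*, *Ntf3* and *Gdnf*, the receptors *Ntrk2*, *Ntrk3*, *Ngfr* and *Ret*, and the co-receptors *Gfra1* and *Gfra2*. Each name lay on a locus of its own, and 7 of the 9 had enough fragments for the test. RNA was sequenced from whole brainstems at P21 in 6 libraries, 3 per genotype, and each library was made from a pool of 3 brainstems. *Hoxa5* cKO animals were Hoxa5flox/flox;CMV-CreERT2+/- and *Hoxa5* control animals were Hoxa5flox/flox;CMV-CreERT2-/-, so both carried the floxed allele on both chromosomes, while the tamoxifen-inducible Cre, driven by the CMV promoter rather than by one of a single cell type, was present only in the cKO. The mice were of a mixed background, mostly 129/Sv with some C57BL/6 and DBA/2, and cKO and control pups came from the same litters. Pups of both genotypes received tamoxifen from P1 to P4, so an effect of active Cre itself and of *Hoxa5* deletion cannot be told apart. Since each library averages 3 animals, p-values measure the spread between pools, not between animals.

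Neurotrophins are secreted growth factors that bind Trk receptor tyrosine kinases: BDNF binds TrkB, encoded by *Ntrk2*, and NT-3, encoded by *Ntf3*, binds chiefly TrkC, encoded by *Ntrk3*. All neurotrophins also bind p75, encoded by *Ngfr*. GDNF signals through RET, a receptor tyrosine kinase that needs a membrane-anchored co-receptor, GFRα1 for GDNF and GFRα2 for the related neurturin. In the brainstem these systems are best known for the survival and connections of motor, catecholaminergic and sensory neurons and for activity-dependent change at synapses.

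Trk and RET receptors are each made in forms that share their start and differ in their end. The sequences below show the points of divergence, because the counts are of whole loci and so add the forms together. Each runs 5′ to 3′ on the coding strand of GRCm38 (the mm10 assembly) in the GENCODE M21 annotation, with the last 30 shared coding bases in lower case and the 30 bases that follow in that form in capitals.
Ntrk2-201: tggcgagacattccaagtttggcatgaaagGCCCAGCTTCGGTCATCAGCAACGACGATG
Ntrk2-202: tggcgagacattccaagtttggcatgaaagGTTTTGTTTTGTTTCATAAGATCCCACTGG
Ntrk3-201: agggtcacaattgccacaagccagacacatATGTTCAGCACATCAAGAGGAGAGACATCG
Ntrk3-202: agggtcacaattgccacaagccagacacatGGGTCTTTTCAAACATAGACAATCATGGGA
Ret-201: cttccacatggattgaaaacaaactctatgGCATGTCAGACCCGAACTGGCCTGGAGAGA
Ret-202: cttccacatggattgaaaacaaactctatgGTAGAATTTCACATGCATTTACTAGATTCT

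For *Ntrk2* the forms part after base 58878262 of chromosome 13. The longer form has 1070 further coding bases, which encode the kinase, and the shorter has 35, which encode the short tail of truncated TrkB, a form known from astrocytes. For *Ntrk3* they part after base 78356027 of chromosome 7, with 890 further coding bases in the kinase form and 251 in the truncated form. For *Ret* they part after base 118155288 of chromosome 6, with 155 against 29 coding bases at the carboxyl terminus, beyond the kinase.

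The deposited assembly held both kinds of Trk model in this tissue. Of its 5 *Ntrk2* models, 3 reached the kinase exons with 18 exons each, and 2 ended at the truncated form with 13 exons, of which 1 had been built from the reads and 1 copied from the reference. Of its 8 *Ntrk3* models, 6 were long, and of the 2 truncated ones the model with 15 exons had been built from the reads and the model with 14 exons was a reference copy. Both *Ret* models, with 19 and 20 exons, were reference copies. Over the 9 genes there were 31 models, 14 of them built from reads. How the fragments divide between forms was not analysed here.

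**Figure D1:**
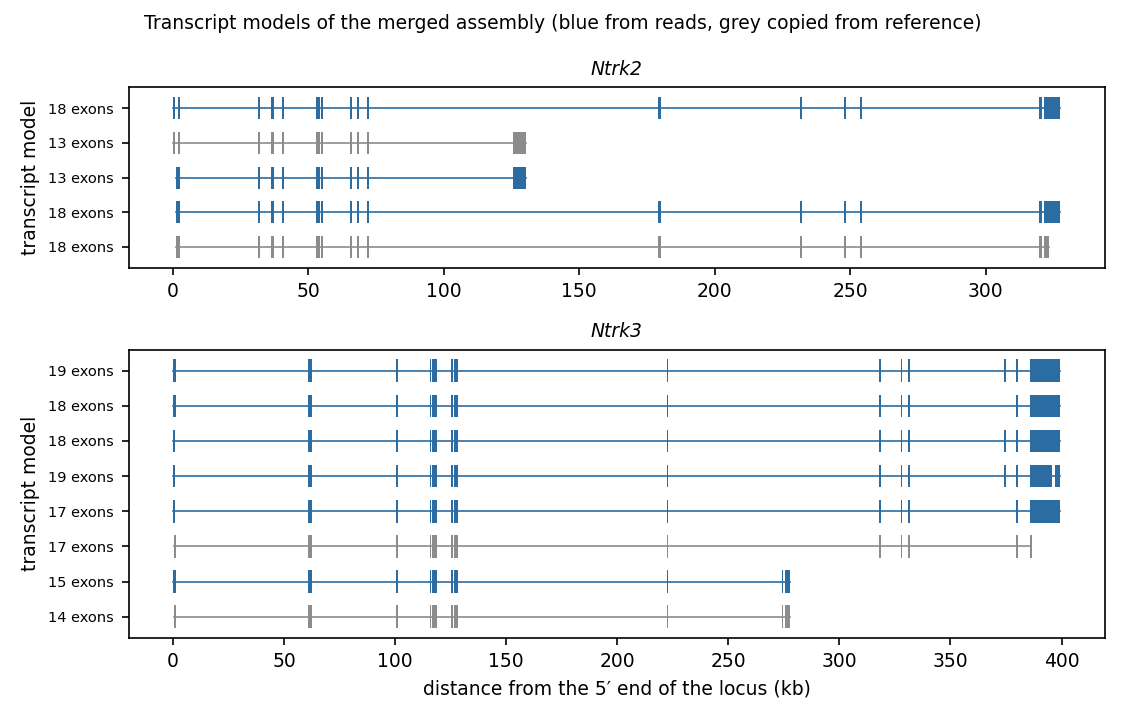
Transcript models of *Ntrk2* (upper panel) and *Ntrk3* (lower panel) in the deposited assembly, drawn in the direction of transcription against the distance from the 5′ end of the locus in kb. Boxes are exons, with short exons widened to be visible, lines are introns, blue models were built from reads and grey models copied from the reference. The 2 truncated models of each gene stop well short of the exons at the far end.

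The *Hoxa5* locus did not separate the libraries by their labels. It held 202, 337 and 77 fragments in the 3 libraries labelled control and 279, 57 and 63 in the 3 labelled cKO, and the groups overlapped. This locus (chr6:52201754-52211868) also takes in *Hoxa6* and 2700086A05Rik, and its count does not separate the floxed stretch from the rest. Control and cKO below stand for these labels. Libraries held 12034613 to 13202707 fragments. Of 21854 loci tested with edgeR's quasi-likelihood test, 116 had a Benjamini-Hochberg adjusted p under 0.05 and are spoken of as called, 110 lower and 6 higher in the cKO. Markers of cerebellar cells differed strongly between genotypes: 7 of 8 granule neuron markers and 6 of 8 Purkinje cell markers were called lower, with summed levels of 345 to 639 CPM (fragment counts scaled by library size) in control against 149 to 177 CPM in cKO for granule neurons, and 588 to 931 against 337 to 420 CPM for Purkinje cells. Brainstem markers were present in all libraries, among them *Chat* at 14.2 to 22.0 CPM and *Dbh* at 6.57 to 11.8 CPM.

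The Trk receptors, *Ret* and its co-receptors were more abundant than the 3 ligands in every library, whereas *Ngfr* lay below *Bdnf*. On the FPKM scale, which divides by transcript length and so allows levels of different genes to be compared, *Ntrk2* came first with a mean of 79.7 over the 6 libraries (range 77.6 to 83.7). *Ntrk3* followed at 30.6 (29.0 to 32.3). Both exceeded every other gene of the 9 in every library.

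The RET system lay below the Trk receptors. The mean FPKM was 16.7 for *Gfra1* (15.8 to 17.7), 12.6 for *Ret* (11.1 to 14.4) and 5.83 for *Gfra2* (5.37 to 6.42). Co-receptor and receptor transcripts were thus within 1.33-fold of each other for *Gfra1* and *Ret*, although their ranges did not overlap. That order rests on the transcript lengths behind FPKM, and the *Gfra1* models run from 3224 to 7765 bases. In CPM, which is not divided by length, *Gfra1* averaged 81.7 in control and 83.0 in cKO, and *Ret* 83.2 and 91.7.

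*Bdnf* was the only ligand of the 3 that was well detected, with a mean of 3.63 FPKM (3.27 to 4.19). *Ngfr* followed at 1.31 FPKM (0.836 to 1.63), *Ntf3* at 0.418 FPKM (0.0631 to 0.629) and *Gdnf* at 0.106 FPKM (0.0231 to 0.168). Among neighbours in this order, the ranges over the 6 libraries overlapped for *Ntf3* and *Gdnf* and for no other pair. These are levels of RNA in the brainstem, and protein was not measured.

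**Figure D2:**
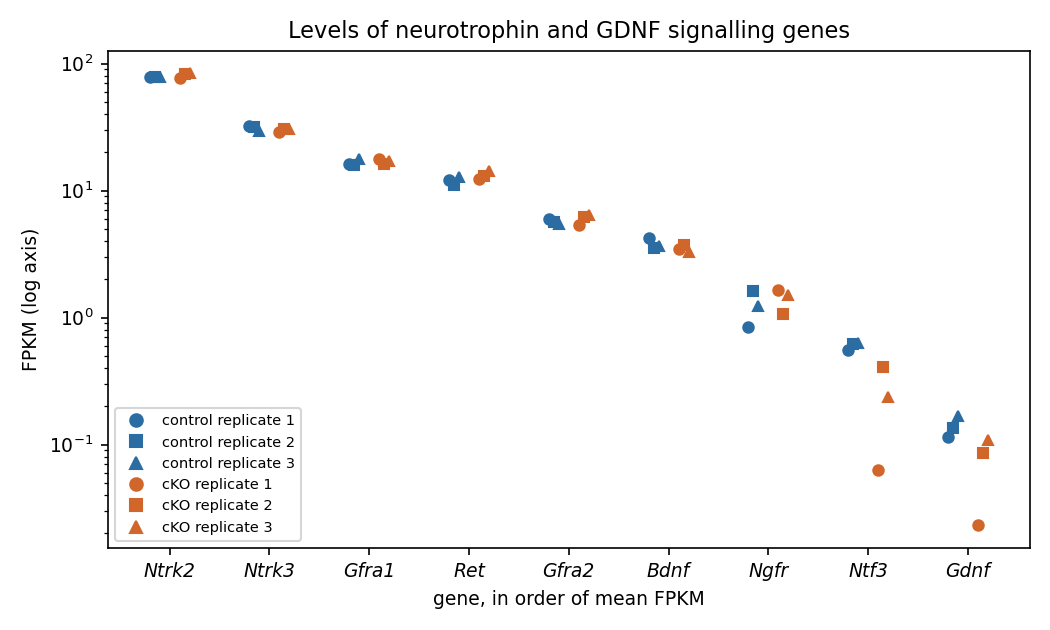
FPKM of the 9 genes in each library on a log axis, in order of their mean over the 6 libraries. Blue symbols are control and orange symbols cKO, and the symbol shapes are replicates 1 to 3. *Ntrk2*, at a mean of 79.7 FPKM, is highest in all libraries, and the genotypes lie apart only for *Ntf3* and *Gdnf*, whose cKO replicate 1 is lowest.

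None of the 7 genes tested was called between the genotypes, where 0.531% of all loci tested were called (0.503% lower and 0.0275% higher in the cKO). At an unadjusted p under 0.05 only *Ret* passed, in the higher direction. Of all loci tested, 6.94% passed, 4.03% lower and 2.91% higher. The CPM of control and cKO libraries overlapped for all 7, while 12.2% of all loci tested showed no overlap, 6.54% lower and 5.61% higher in the cKO. Of the 7, 5 had positive and 2 negative log2 fold changes (cKO over control), with a median of 0.06. The median over all loci tested was 0.0034.

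*Bdnf*, the activity-regulated ligand of TrkB (chr2:109674700-109727057, plus strand), had 14.7, 12.3 and 12.8 CPM in the control libraries and 12.4, 13.1 and 11.4 CPM in the cKO libraries. Control replicate 1 was the highest and cKO replicate 3 the lowest, and the groups overlapped. The means were 13.3 ± 1.24 CPM in control and 12.3 ± 0.838 CPM in cKO (SD, n = 3 pools each). The log2 fold change was -0.11 (SE 0.11, 95% interval -0.34 to 0.12, edgeR adjusted p = 0.916), so an effect from a fall by 20.8% to a rise of 8.81% lay inside the interval.

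*Bdnf* is known for its many promoters, each with its own 5′ exon spliced to a common coding exon, and for calcium- and cAMP-response elements in some of them. The assembly held 5 *Bdnf* models of 2 exons each, from 4 start sites. RefSeq lists 7 *Bdnf* promoters on GRCm38.p6, given as 250 bases before the start site and 50 after it. Those shown here are the 2 that hold the letters TCACGT, searched on both strands (ACGTGA on the other). These letters differ from the consensus cAMP-response element, and whether they act as such an element was not tested. Both promoters have a start site used by an assembly model, and the capitals mark the match.
Bdnf chr2:109674450-109674749, plus strand: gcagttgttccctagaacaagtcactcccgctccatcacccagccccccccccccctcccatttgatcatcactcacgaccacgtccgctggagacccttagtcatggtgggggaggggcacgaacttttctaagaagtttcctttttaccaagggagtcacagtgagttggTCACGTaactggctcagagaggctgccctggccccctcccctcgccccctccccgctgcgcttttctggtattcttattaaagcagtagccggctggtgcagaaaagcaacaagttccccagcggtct
Bdnf chr2:109692186-109692485, plus strand: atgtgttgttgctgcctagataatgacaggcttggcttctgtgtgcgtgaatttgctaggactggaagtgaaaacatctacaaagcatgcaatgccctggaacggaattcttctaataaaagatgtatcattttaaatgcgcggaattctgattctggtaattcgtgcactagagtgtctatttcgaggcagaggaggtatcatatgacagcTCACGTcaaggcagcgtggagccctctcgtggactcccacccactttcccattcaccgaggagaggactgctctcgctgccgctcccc

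The match begins 78 bases before the start site in the former and 38 bases before it in the latter. Of all 32851 RefSeq promoters, 7.0% hold these letters, as do 0 of the 7 entries for the other members that have an entry (*Ntf3*, *Gdnf*, *Gfra1*, *Ntrk2* and *Ngfr*). A match of letters is a description and not a measured binding site. As the counts are per locus, transcripts from different *Bdnf* promoters were not separated.

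*Ntf3* (chr6:126101412-126166744, minus strand), the ligand of TrkC, was scarce and lower in the cKO libraries. It had 9, 10 and 11 fragments in control and 1, 7 and 4 in cKO, or 0.737, 0.815 and 0.831 CPM against 0.0835, 0.537 and 0.316 CPM. Every cKO library lay below every control library, a pattern that 6.54% of the loci tested showed in this direction. *Ntf3* itself was too low to be among those loci. With 12 fragments in all against 30, the ratio of cKO to control was 0.399, with a 95% counting interval of 0.186 to 0.802 that covers counting error only.

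The locus was too low for the main test. When it was tested with no filter on low counts, the log2 fold change was -1.30 (SE 0.60, 95% interval -2.52 to -0.08, unadjusted p = 0.0373) and the adjusted p was 0.735, so *Ntf3* was not called. Its cKO replicate 1 held a single fragment. Without that library the ratio was 0.536 (0.242 to 1.10), and the interval then included 1. The cerebellar markers were lower in the same libraries, with median log2 fold changes of -1.72 for the 8 granule neuron markers and -0.85 for the 8 Purkinje cell markers. Their part in the values of *Ntf3*, and in those of *Gdnf*, was not tested.

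*Gdnf* (chr15:7811011-7837575, plus strand), the founding ligand of the RET system, was scarcer still. It had 5, 6 and 8 fragments in control and 1, 4 and 5 in cKO, or 0.410, 0.489 and 0.605 CPM against 0.0835, 0.307 and 0.395 CPM. The groups did not overlap in CPM, a pattern that 6.54% of the loci tested showed in this direction. *Gdnf* was too low to be among those loci, and control replicate 1 and cKO replicate 3 held 5 fragments each. The ratio was 0.525 on 10 against 19 fragments, with a counting interval of 0.218 to 1.19, and 0.692 (0.276 to 1.61) without cKO replicate 1. Both intervals included 1, so these counts did not settle whether *Gdnf* differed.

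*Ntrk2* (chr13:58806554-59134204, plus strand), the receptor for BDNF, had 555, 560 and 567 CPM in control and 555, 595 and 606 CPM in cKO. The control libraries lay close together, and cKO replicate 1 fell among them while the other cKO libraries were higher. The log2 fold change was 0.06 (SE 0.04, 95% interval -0.03 to 0.16, adjusted p = 0.870), which places the change between a fall by 2.05% and a rise of 11.4%. Astrocyte markers, given here because astrocytes carry truncated TrkB, summed to 4937 to 5077 CPM in control and 4967 to 5332 CPM in cKO, with 0 of 8 called and a median log2 fold change of 0.07. At an unadjusted p under 0.05, 3 of the 8 were higher and 1 was lower, against 6.94% of all loci in either direction: *Fgfr3* had a log2 fold change of 0.19, *Agt* 0.17, *Gjb6* 0.20 and *Aqp4*, the water channel of astrocyte endfeet, -0.14. These 4 are named after their values were seen. The part of astrocytes in the *Ntrk2* values was not tested. In bulk tissue, fewer cells of a type and less RNA per cell cannot be told apart.

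*Ntrk3* (chr7:78178958-78578443, minus strand), the receptor for NT-3, had 252, 255 and 242 CPM in control and 230, 251 and 260 CPM in cKO. The cKO libraries held both the lowest and the highest value. The log2 fold change was -0.01 (SE 0.05, 95% interval -0.12 to 0.09, adjusted p = 0.984). Its bounds correspond to a fall by 7.93% and a rise of 6.63%.

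*Ngfr* (chr11:95568821-95587698, minus strand), which encodes p75, had 3.03, 5.78 and 4.46 CPM in control and 5.76, 3.91 and 5.45 CPM in cKO. Control replicate 1 was lowest and control replicate 2 highest, so the cKO values lay wholly inside the range of the controls. The log2 fold change was 0.18 (SE 0.21, 95% interval -0.27 to 0.63, adjusted p = 0.933). At 37 to 71 fragments per library, changes from a fall by 16.9% to a rise of 55.0% stayed inside the interval. p75 is also made by Schwann cells, and the 7 Schwann cell and nerve root markers summed to 51.6 to 60.8 CPM in control and 54.0 to 57.8 CPM in cKO, with 0 of 6 tested called. Their part in the *Ngfr* values was not tested.

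*Ret* (chr6:118151748-118197744, minus strand), the signalling receptor of the GDNF family, showed the smallest p of the 7. It had 83.5, 77.1 and 89.0 CPM in control and 84.7, 91.6 and 98.7 CPM in cKO. Control replicate 2 was lowest and cKO replicates 2 and 3 were highest, while cKO replicate 1 lay below control replicate 3, so the groups overlapped. The means were 83.2 ± 5.95 CPM in control and 91.7 ± 6.99 CPM in cKO (SD, n = 3 pools each).

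The log2 fold change of *Ret* was 0.14 (SE 0.06, 95% interval 0.0028 to 0.28), a difference of 10.2% with bounds of 0.193% and 21.1%. The unadjusted p from edgeR was 0.0460 and the adjusted p was 0.702, so *Ret* was not called. Its direction was the same in all 18 alternative analyses, with adjusted p from 0.105 to 1.00. The log2 fold changes ran from 0.08, without cKO replicate 3, to 0.24, without both control replicate 3 and cKO replicate 1. Those were the highest control and the lowest cKO library for *Ret*, so leaving both out was bound to raise its fold change. DESeq2 gave 0.14 with an unadjusted p of 0.0756.

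RET is known in motor neurons and in catecholaminergic neurons, so the markers of both are given beside it. All 7 tested loci of the 9 cholinergic and motor neuron markers had positive log2 fold changes (median 0.16), and their summed level was 257 to 265 CPM in control and 258 to 297 CPM in cKO. All 7 tested of the 8 catecholamine neuron markers were positive as well (median 0.12), with 122 to 132 CPM against 128 to 147 CPM. Both sums were highest in cKO replicate 1 (297 and 147 CPM), the cKO library with the lowest *Ret* (84.7 CPM). The catecholamine sum was lowest among cKO libraries in replicate 3 (128 CPM), where *Ret* was highest (98.7 CPM). Much of the sums came from *Ache* (144 to 157 CPM) in the former list, and from *Slc18a2* (46.0 to 54.4 CPM) and *Ddc* (37.1 to 44.7 CPM) in the latter. No marker of either list was called. *Dbh*, the enzyme that makes noradrenaline, had 7.70, 9.77 and 6.57 CPM in control and 11.8, 11.0 and 10.2 CPM in cKO, without overlap (log2 fold change 0.46, SE 0.14, adjusted p = 0.297). *Isl1*, a transcription factor of motor neurons, had 0.819, 1.14 and 0.982 CPM in control and 1.67, 1.15 and 2.45 CPM in cKO (log2 fold change 0.83, SE 0.34, adjusted p = 0.620). The part of these neurons in the *Ret* values was not tested.

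Neither co-receptor of the 9 was called or had an unadjusted p under 0.05. *Gfra1* (chr19:58231354-58455926, minus strand), which presents GDNF to RET, had 78.2, 81.0 and 86.0 CPM in control and 84.4, 81.6 and 83.1 CPM in cKO. The cKO values lay inside the control range, and the log2 fold change was 0.02 (SE 0.05, 95% interval -0.09 to 0.14, adjusted p = 0.971). Within the locus, on the opposite strand, lies *Gm10007* (chr19:58296204-58300348), and whether the counting used strand is not stated in the sources used here, so its fragments could be shared.

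*Gfra2* (chr14:70890109-70980075, plus strand), which presents neurturin, had 20.4, 19.0 and 18.7 CPM in control and 18.1, 21.0 and 21.6 CPM in cKO. The lowest and the highest value both came from cKO libraries. The log2 fold change was 0.06 (SE 0.09, 95% interval -0.13 to 0.26, adjusted p = 0.946). It ran from 0.0176, without cKO replicate 3, to 0.14, without cKO replicate 1. With the cerebellar markers as a covariate, which itself lay apart between the genotypes, it was 0.30. *Gfra2* was not called in any of these.

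**Figure D3:**
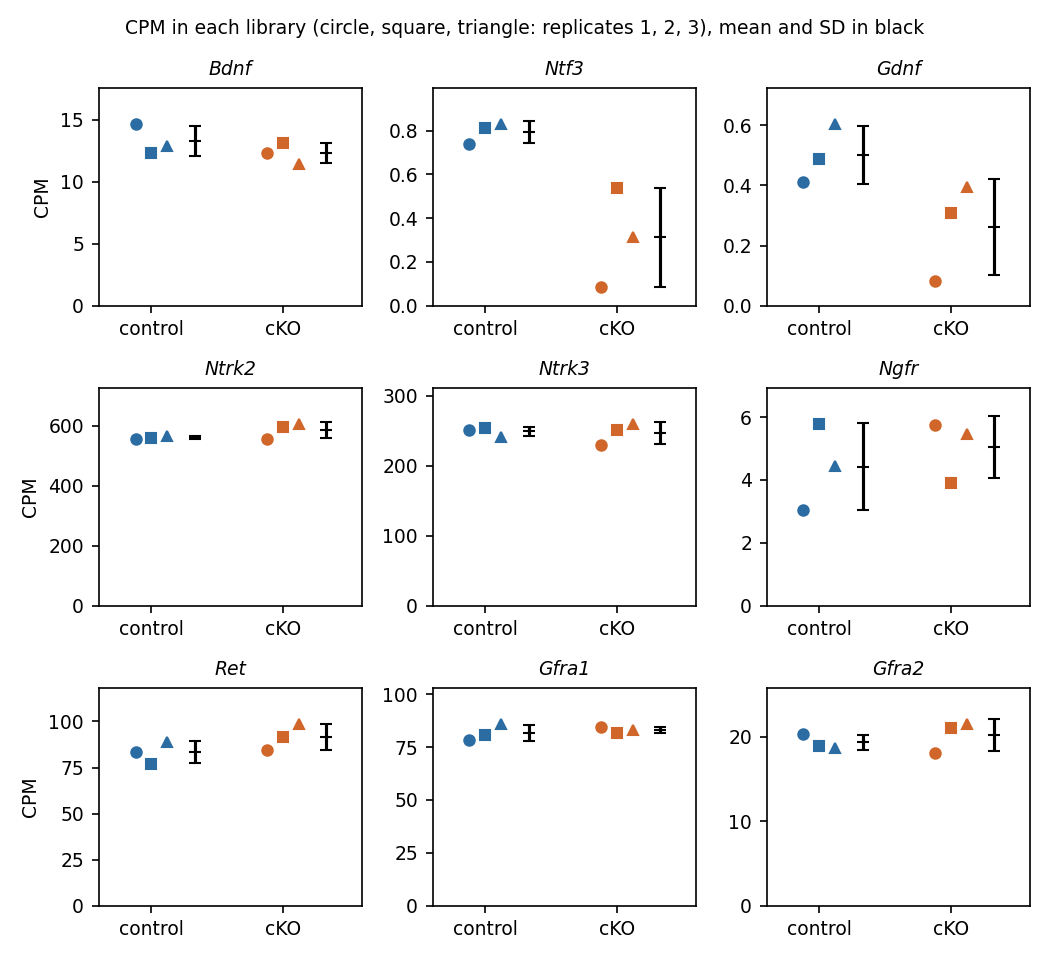
CPM of the 9 genes in each library, 1 panel per gene, each axis starting at 0. Circles, squares and triangles are replicates 1, 2 and 3 (blue control, orange cKO), and the black marks give the mean and SD of the 3 pools. The groups overlap in 7 panels, and the cKO values of *Ntf3* (0.0835 to 0.537) and *Gdnf* lie below those of the controls.

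Further ligands and receptors of both families were either tested and not called or too low to test. *Ntf5*, the older symbol of *Ntf4*, which encodes a further ligand of TrkB, had 1 to 3 fragments per library. *Artn* and *Pspn*, 2 further ligands of the GDNF family, had 4 to 13 and 1 to 3.

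*Nrtn*, which encodes neurturin, was just high enough to test, with 11 to 26 fragments and a log2 fold change of 0.10 (SE 0.33, 95% interval -0.59 to 0.79). *Gfra4*, the co-receptor of persephin, had 20.1 to 21.5 CPM (-0.01, SE 0.08), and *Gfra3*, that of artemin, had 0 to 3 fragments. *Sort1*, which encodes sortilin, the partner of p75 in binding unprocessed neurotrophins, had 288 to 319 CPM (-0.04, SE 0.05).

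**Figure D4:**
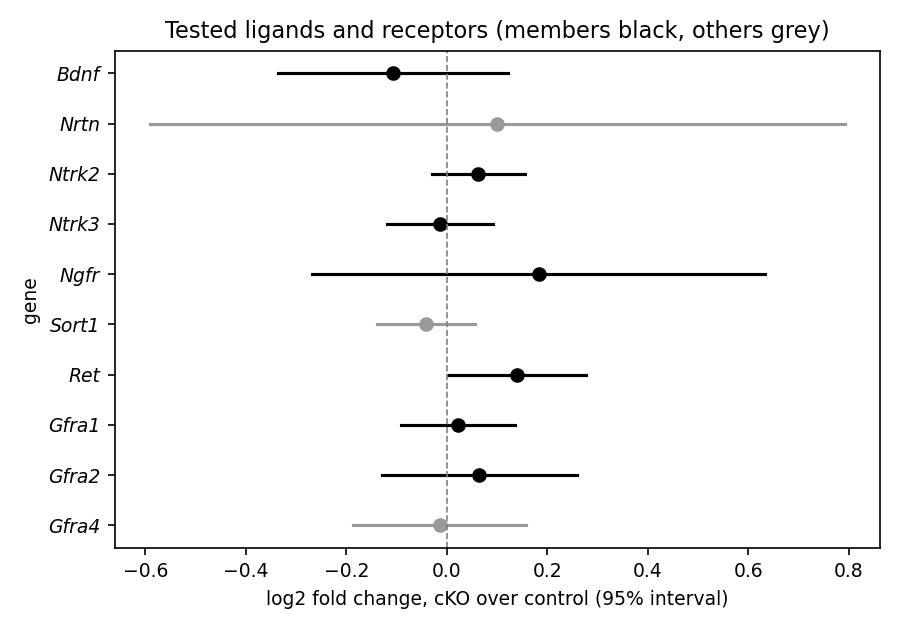
Log2 fold changes of cKO over control from edgeR, with 95% intervals as bars, for the 7 tested genes (black) and 3 further ligands and receptors of the pathway (grey). Of these intervals, that of *Ret* alone lies above 0, by its lower bound of 0.0028, and the intervals of *Nrtn* and *Ngfr* are the widest.

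Across the wider pathway, 62 loci were listed, of which 53 are not among the 9. Of these 53, 46 were tested and 0 were called, with 24 positive and 22 negative log2 fold changes, a median of 0.00 and a range from -0.22 for *Shc4*, a Shc adaptor, to 0.22 for *Pcsk5*, a proprotein convertase. The test was edgeR's, and 1 of the 46 passed at an unadjusted p under 0.05, where 6.94% of all loci did. DESeq2 also called 0. The gene was *Plat*, tissue plasminogen activator, which makes the plasmin that can cleave proBDNF. It had 79.4, 87.2 and 81.7 CPM in control and 97.9, 83.0 and 92.4 CPM in cKO, which overlapped (log2 fold change 0.14, SE 0.06, adjusted p = 0.691).

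By role, the 11 neurotrophin receptors and co-receptors had a median log2 fold change of -0.01, the 10 tested of 12 GDNF family receptors and co-receptors 0.02, and the 30 adaptors and effectors of p75 and Trk 0.01. None was called in any of these lists. Without overlap between genotypes were 5 of the 46, against 12.2% of all loci tested: *Lrig1*, *Kidins220* and *Gab1* were lower and *Ncam1* and *Maged1* higher. These 5 are named after their values were seen. *Lrig1* encodes a membrane protein that restrains receptor tyrosine kinases, *Kidins220* a scaffold bound to Trk receptors and p75, *Gab1* a docking adaptor, *Ncam1* a cell adhesion molecule that can serve GDNF with GFRα1, and *Maged1* a p75-binding protein. Their log2 fold changes ran from -0.09 for *Gab1* to 0.07 for *Maged1*.

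**Figure D5:**
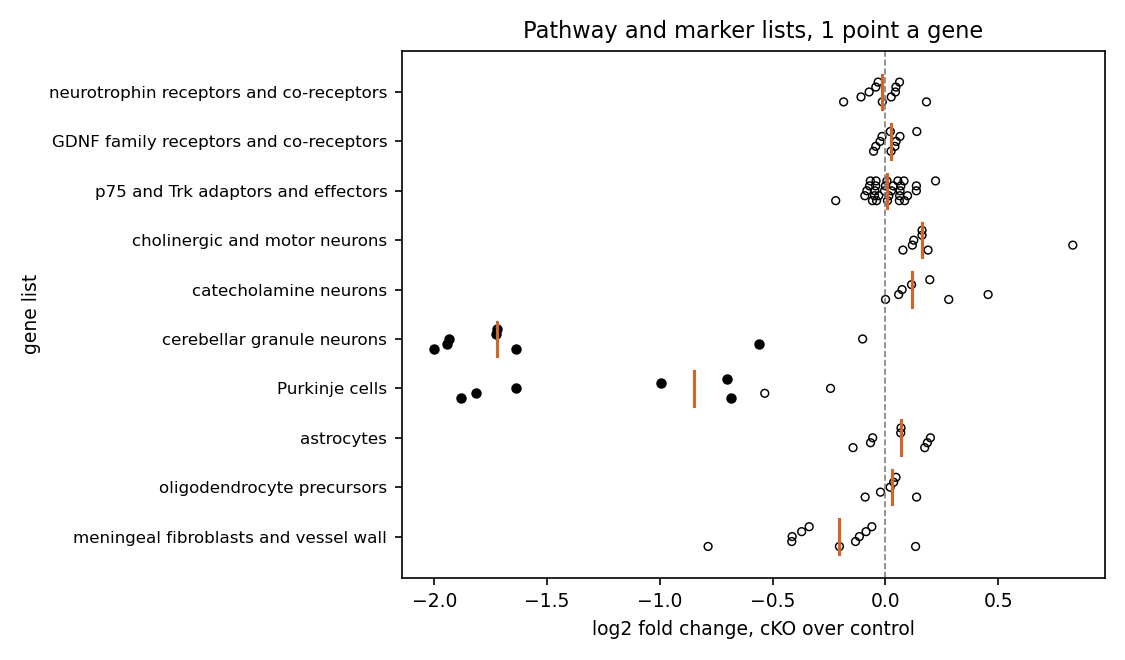
Log2 fold changes of cKO over control for the tested genes of 3 pathway lists and 7 cell type marker lists, 1 point per gene, with filled points for an adjusted p under 0.05 and an orange bar at the median of each list. The pathway lists lie between -0.22 and 0.22 with no filled point, whereas the granule neuron and Purkinje cell markers have medians of -1.72 and -0.85.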

How the data were processed

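The libraries were stranded total RNA depleted of ribosomal RNA. According to the processing notes and methods, the authors used CASAVA 1.6, aligned to mm10 with TopHat2 2.0.9, assembled with Cufflinks 2.2.0 and quantified with Cuffdiff. The deposited table gives fragment counts per locus, all whole numbers, and FPKM scaled between libraries by the authors. Its 2 further value columns were not used. The deposited assembly gives exon positions. Genotypes came from the table's conditions, and its replicate numbers served only as names, so replicate 1 here need not be pool 1.

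Counts were scaled by TMM (factors 0.995 to 1.01), low loci were removed by filterByExpr, and genotypes were compared by the quasi-likelihood test of edgeR 4.0.16 in R 4.3.3, with p-values adjusted by the Benjamini-Hochberg method over 21854 loci at a threshold of 0.05. Levels in CPM use TMM-scaled library sizes. Intervals are at 95%, those of count ratios exact. Alternatives used DESeq2 1.42.0, limma 3.58.1 on log2(FPKM + 1) or log2(FPKM + 0.1), other filters and left-out libraries. Scripts were tested on simulated data. Named genes were the 9 members, further ligands and receptors, and pathway genes at an unadjusted p under 0.05. Pathway genes named for the ends of the range or for absence of overlap, and single cell type markers, were named after their values were seen. Some genes of the lists are not reported here by name. The members and lists were chosen with earlier results of these data known. A locus with failed status in a library (14 loci) was kept. Sequences came from GENCODE M21 and from RefSeq promoters, which had entries for 6 of the 9 genes.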

Additional observations from a re-analysis of the deposited data

How the results depend on the processing

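None of the 9 genes and none of the wider pathway was called in any analysis that tested them. *Ntf3*, *Gdnf* and 7 further pathway loci were too low for the main test. Of 126 alternative values for the 7 tested genes, 117 kept their direction and 9 changed it. The smallest adjusted p was 0.105, for *Ret* without both control replicate 3 and cKO replicate 1. Over all loci, 116 were called, against 221 with no filter, 76 with at least 50 fragments, 142 with library sizes alone, 116 with DESeq2 and 161 without both control replicate 3 and cKO replicate 1. With limma, 0 were called on log2(FPKM + 1), with or without a filter (1298 and 1873 at an unadjusted p under 0.05), and 1 on log2(FPKM + 0.1). Leaving out each library gave 44 (without control replicate 1) to 126, and 65 without cKO replicate 3. The mean log2 level of the cerebellar markers was also used as a covariate, chosen with earlier results known. With it, 0 loci were called by edgeR (511 at an unadjusted p under 0.05). *Gfra1* was then -0.18, *Bdnf* 0.37, *Ntrk3* 0.0523 and *Ngfr* -1.34 (adjusted p = 1.00), and *Ret* kept its direction at 0.09 and *Gfra2* at 0.30. Granule neuron markers averaged 4.79 to 5.52 log2 CPM in control libraries and 3.62 to 3.88 in cKO libraries. For Purkinje cell markers the averages were 4.94 to 5.57 against 4.02 to 4.31. The covariate thus lay apart between the genotypes, so this fit cannot separate it from genotype, and no conclusion is drawn from it. With libraries left out in turn, log2 fold changes ran from -0.00858 to 0.0574 for *Gfra1*, -0.0516 to 0.0350 for *Ntrk3* and -0.0230 to 0.42 for *Ngfr*, -0.16 to -0.03 for *Bdnf*, 0.02 to 0.14 for *Gfra2*, 0.04 to 0.10 for *Ntrk2* and 0.08 to 0.19 for *Ret*, and without both libraries *Ntrk3* was 0.0133. The cause of these changes was not tested.

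With the replicate number as a block, 130 loci were called, and 0 of the pathway. Same-numbered libraries did not deviate together (correlations 0.03, -0.08 and 0.05, against -0.11 to 0.07 for the other pairs). Such correlations over all loci cannot show whether pools were paired, and no source ties the numbers to pairs. Depth limits *Ntf3* and *Gdnf*, at 1 to 11 and 1 to 8 fragments per library.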

Other observations

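Both scarce ligands, *Ntf3* and *Gdnf*, had their lowest count in cKO replicate 1, with 1 fragment each, a library whose *Hoxa5* locus held 279 fragments against 57 and 63 in the other cKO libraries. These counts are small, and no test of the library was made.

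The letters TGATNNAT, a motif of the kind that HOX and PBX proteins bind together, occurred on either strand in 2 of the 7 *Bdnf* promoters and in 0 of the 7 entries of the other members, against 8.85% of all 32851 RefSeq promoters. The match describes letters and not binding, and the motif was chosen with earlier results of these data known.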
